A study of Mus musculus with 6 samples.

Results

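The genes described here are the matrix metalloproteases, the ADAMTS proteases and the tissue inhibitors of metalloproteases (TIMPs). They were taken by symbol from the deposited count table: every Mmp, Adamts and Timp symbol followed by a number, and for Mmp an optional letter. This gave 46 of the 33639 gene symbols, namely 23 Mmp, 19 Adamts and 4 Timp genes. Male mice lacking Abcg8 in the whole body had been given a low sterol diet with 0.005% ezetimibe, which blocks intestinal sterol uptake, until weaning. They then received a low sitosterol, high sitosterol, ergosterol or stigmasterol diet for 12 weeks. All groups, the low sitosterol reference included, thus lacked Abcg8 and had early ezetimibe. There were 4 liver libraries, 1 for each diet, and 2 adrenal libraries, from the low and the high sitosterol diet, and each group was a single mouse. Sterol doses, mouse ages and the part of Abcg8 that was deleted are unknown here, so the diets are set side by side and not matched by dose. Values of the 4 livers always follow the order low sitosterol, high sitosterol, ergosterol, stigmasterol.

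Matrix metalloproteases are zinc enzymes that cut collagens, elastin, laminin and other extracellular proteins, most of them after a pro-domain has been removed. ADAMTS proteases are secreted relatives with thrombospondin repeats, which trim procollagens, cleave large proteoglycans such as aggrecan and versican, or cut von Willebrand factor. TIMPs bind the active sites of these enzymes and block them. In liver, they are known to be made by stellate cells, macrophages, bile duct cells and sinusoidal cells when scar matrix is laid down or removed, more than by hepatocytes.

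The libraries held 41546507 to 50573364 rounded estimated counts. Since a group is 1 library, differences have no replicate check, there is no test across genes, and each ratio compares 2 libraries and not 2 diets. Values of 1 gene are given as scaled CPM (CPM adjusted by TMM factors within a tissue). Ratios are on the log2 scale with an exact 95% interval that covers counting error only. A gene is called higher or lower where the ratio reached 2-fold and that interval excluded equality. Levels of different genes are compared in TPM, which takes gene length into account. Hepatocyte markers summed to 65523 to 152675 scaled CPM in the livers and adrenal cortex markers to 63069 and 65323 in the adrenals, as the tissue labels say. The sex label was borne out by the livers only. Eif2s3y, a Y-linked gene, had 1293 to 1680 counts in the livers but 0 (low sitosterol) and 2 (high sitosterol) in the adrenals, which are therefore called the adrenals labelled male. The low sitosterol liver, the reference of all liver ratios, also held adrenal transcripts, at a median of 0.127% of the adrenal level over 9 cortex markers, against 0.0065% to 0.0169% in the other livers. At that share the adrenal level of Timp3 would give 89.0 of its 925 counts there (9.62%), and that of Timp2 12.5 of 481.

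In transcript share, inhibitors outweighed proteases in adrenal but not in liver. The adrenal order rested on Timp3, without which the other Timp genes summed below the proteases. The 4 Timp genes summed to 560 and 661 TPM in the adrenals with low and high sitosterol, the 23 Mmp genes to 126 and 113 and the 19 Adamts genes to 63.8 and 119. In liver the Mmp genes summed to 24.0, 48.8, 45.7 and 213 TPM. The Adamts genes summed to 5.35, 8.16, 8.82 and 29.8 TPM, and the Timp genes to 7.54, 10.6, 7.997 and 88.2 TPM. The stigmasterol liver was the highest liver in each family, but its TPM lay higher across genes as well. Against low sitosterol the median log2(TPM + 0.1) ratio of all 13378 genes tested was 0.94, beside 0.08 with TMM scaling. Timp3, a TIMP that binds to the matrix, stood at 441 and 487 TPM in the adrenals and at 3.59 to 22.9 TPM in the livers. For 30 of the 46 genes both adrenals were above all 4 livers in TPM. The share of all genes with that order was not computed, so 30 has no background beside it. Some of the 30 rest on few counts, such as Mmp21 with 1 in each adrenal and 0 in every liver. The exceptions in the other direction were Mmp7, Mmp15 and Adamts13, each higher in every liver than in either adrenal. Adamts13, which cuts von Willebrand factor and is made by stellate cells, stood at 1.04 to 2.01 TPM in liver and at 0.012 and 0.0205 TPM in adrenal. By mean TPM the leading Mmp genes were Mmp14, Mmp19, Mmp2, Mmp7 and Mmp15 in liver, and Mmp14, Mmp19, Mmp28, Mmp2 and Mmp12 in adrenal.

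**Figure D1:**
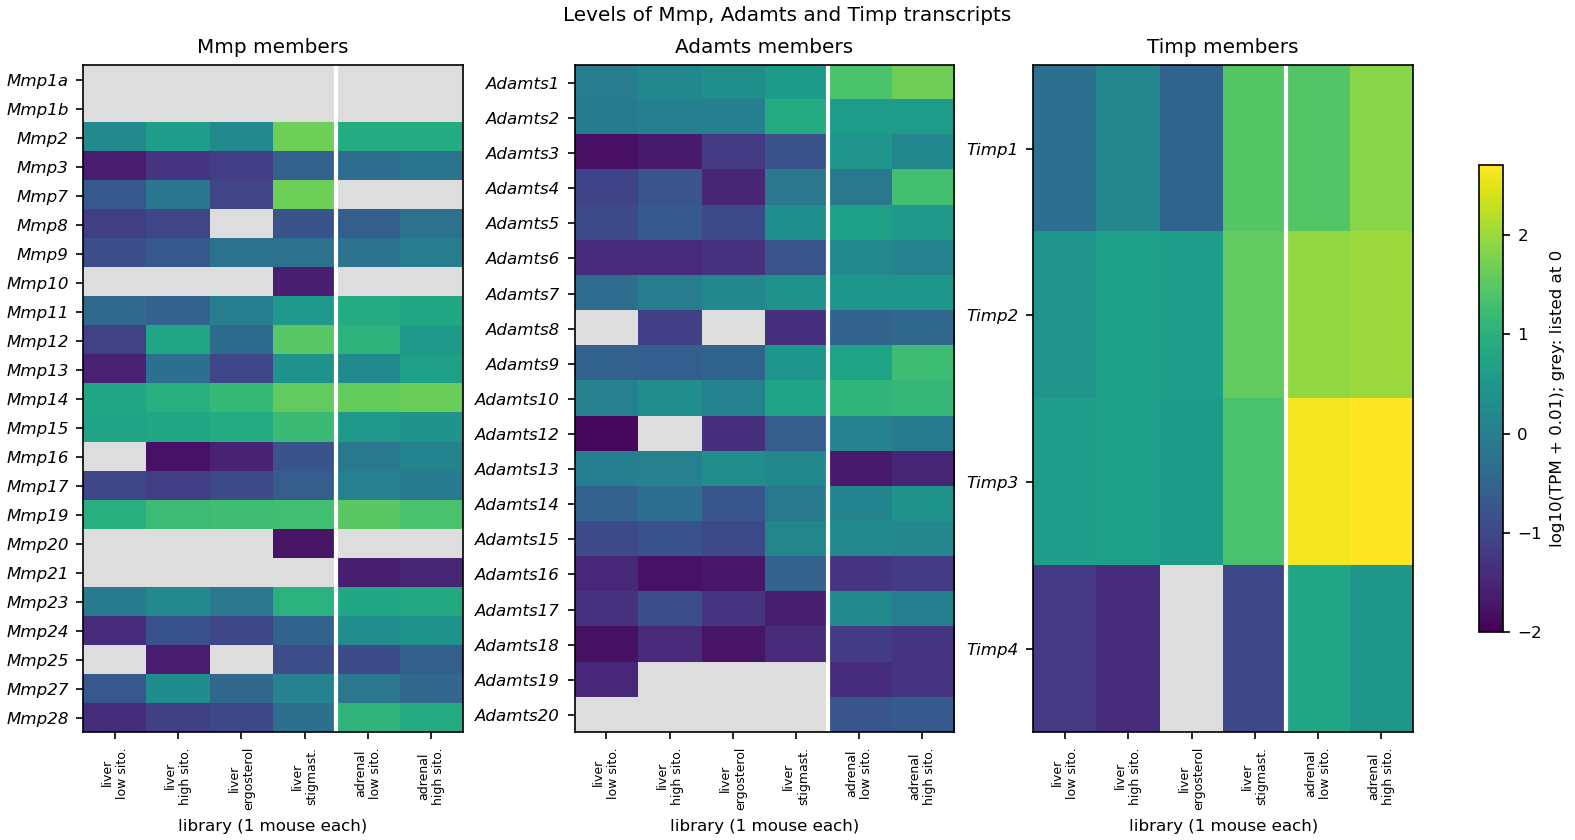
Deposited TPM of the 46 genes (rows) in the 6 libraries (columns, 1 mouse each) as log10(TPM + 0.01), with genes listed at 0 in grey and a white line between liver and adrenal. Timp3 is the brightest row, at 441 and 487 TPM in the adrenals, and Mmp2, Mmp7, Mmp12 and Timp1 are bright in the stigmasterol liver and dim in the low sitosterol and ergosterol livers.

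The first comparison is stigmasterol against low sitosterol in liver. Stigmasterol differs from sitosterol by a double bond in the side chain. Of the 29 proteases and inhibitors measured in liver, 22 stood higher with stigmasterol, beside 21.7% of all genes tested. Among the 22 were Mmp13, Mmp12, the membrane-bound Mmp14, and Timp1, Timp2 and Timp3. Mmp7 was 124-fold, Mmp12 82.7-fold, Timp1 28.9-fold and Mmp2 20.7-fold higher. Mmp7 and Timp1 reached 1 CPM in the stigmasterol liver alone, so that their entry favours a higher value there. Mmp9, Mmp15, Mmp17, Mmp19, Adamts1, Adamts13 and Adamts14 stayed below 2-fold.

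Of the 46 genes, 29 passed the limit of 1 CPM in at least 1 liver, and 11 of these passed through the stigmasterol library alone, which favours a higher value there. Of these 11, Mmp9 and Mmp17 (0.41, -0.25 to 1.11) were not past the rule. By the size rule 22 of the 29 were higher and 0 lower, with a median log2 ratio of 2.38. Among all 13378 genes tested, 21.7% were higher and 7.79% lower, with a median of 0.08. When only genes at 1 CPM or more in the low sitosterol liver were kept, 9 of 14 members were higher and 0 lower, with a median of 1.45, against 12.4% and 8.73% of 11395 genes. By family, 10 of 14 Mmp, 9 of 12 Adamts and 3 of 3 Timp genes were higher (medians 2.32, 2.30 and 2.78). These family values include the 11 that passed through stigmasterol alone, namely 6 Mmp, 4 Adamts and 1 Timp genes. The stigmasterol library had the largest TMM factor (1.35 against 0.83 for low sitosterol). When library totals replaced TMM scaling, the all-gene median log2 ratio rose by 0.69. Then 27 of 29 members were higher, but so were 39.5% of all 13378 genes, up from 21.7%. Of all calls, 92.9% were then higher ones, against 73.6% with TMM scaling. The log2(TPM + 0.1) scale likewise gave 27 members higher, beside 46.5% of all genes, and 95.2% of its calls were higher ones.

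The secreted and membrane collagenases and gelatinases were as follows. Mmp2, the gelatinase of stellate cells and fibroblasts, stood at 2.54, 4.97, 2.47 and 52.7 scaled CPM in the 4 livers. Mmp14, the membrane-anchored protease that activates pro-Mmp2, stood at 16.3, 22.0, 29.8 and 55.5. The stigmasterol liver was the highest for both, and for Mmp14 the log2 ratio was 1.76 (1.64 to 1.88) against low sitosterol. Mmp13, the main interstitial collagenase of rodents, had 2, 57, 9 and 261 counts, or 0.0489, 1.23, 0.202 and 3.83 scaled CPM. Its log2 ratio of 6.05 (4.42 to 9.35) for stigmasterol rests on those 2 counts in the low sitosterol liver. Mmp9, the gelatinase of neutrophils and macrophages, had 17, 20, 21 and 55 counts and was not past the rule (0.94, 0.15 to 1.84). Neutrophil markers, of which 5 of 10 passed the limit, summed to 10.7, 12.3, 3.25 and 12.9 scaled CPM in the 4 livers, with Ly6g at 0 in all but the stigmasterol liver.

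Among the remaining metalloproteases, Mmp7 (matrilysin), known from bile duct epithelium, had 8, 28, 3 and 1728 counts, or 0.195, 0.605, 0.0673 and 25.3 scaled CPM. The gap between the stigmasterol liver and the others was the widest of all members, at a log2 ratio of 6.95 (6.04 to 8.23) against low sitosterol. Cholangiocyte markers moved with it: 10 of 10 were higher, and their sum was 66.6, 72.2, 40.9 and 938 scaled CPM in the 4 livers. Spp1, which is also among the matrix substrates below, made up most of that sum outside the stigmasterol liver. It stood at 56.1, 55.4 and 32.1 scaled CPM with low sitosterol, high sitosterol and ergosterol. Mmp12, the macrophage elastase, stood at 0.366, 10.7, 1.10 and 31.1 scaled CPM, with 15 counts in the low sitosterol liver (log2 6.37, 5.68 to 7.25). Of 13 macrophage markers 8 were higher with stigmasterol and 2 lower (median 1.30), and of 9 lipid-associated macrophage markers 6 were higher and 1 lower. Mmp23 was at 2.49 (2.08 to 2.95), Mmp11 (stromelysin 3) at 2.25 (1.68 to 2.92), Mmp24 at 2.39 (1.25 to 3.97), Mmp27 at 1.86 (1.06 to 2.81) and Mmp28 at 4.18 (2.51 to 7.49). Mmp24 and Mmp28 had 6 and 2 counts in the low sitosterol liver. Mmp15, a membrane protease, stood at 32.7, 32.3, 36.0 and 50.8 scaled CPM and Mmp19 at 34.6, 53.8, 51.4 and 37.3. These were the Mmp genes of highest CPM in the low sitosterol liver, and their stigmasterol ratios were 0.64 and 0.11.

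Among the 12 ADAMTS genes past the limit, Adamts1, Adamts13 and Adamts14 did not pass the rule with stigmasterol and the other 9 were higher. Adamts2, which removes the amino propeptide of procollagens, stood at 6.55, 6.50, 5.16 and 34.2 scaled CPM, so that 3 livers lay close together and the stigmasterol liver was apart (log2 2.38, 2.20 to 2.57). Its relative Adamts14 stood at 1.73, 2.53, 0.786 and 2.45, with a stigmasterol ratio of 0.50 that was not past the rule. Adamts5, an aggrecanase, stood at 0.928, 1.62, 0.741 and 10.9 scaled CPM and was 11.6-fold higher. Adamts9, which cuts versican, was 5.33-fold higher, Adamts15 was 7.48-fold higher, and Adamts4, the other main aggrecanase, was 4.64-fold higher from 16 counts. Adamts12 and Adamts16 had 1 and 3 counts in the low sitosterol liver and 61 and 60 in the stigmasterol liver. Adamts10 (log2 1.09, 0.85 to 1.34) and Adamts7 (1.38, 1.00 to 1.78) passed the rule, and Adamts1 (0.98, 0.76 to 1.20) lay just short of it. Adamts13 stood at 3.37, 3.498, 5.52 and 3.05 scaled CPM, a stigmasterol ratio of -0.14 (-0.46 to 0.18) that turned to 0.55 with library totals and to 0.52 on the log2(TPM + 0.1) scale.

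Of the inhibitors, Timp1, which is known to rise with stellate cell activation, had 16, 42, 8 and 788 counts, or 0.391, 0.907, 0.180 and 11.6 scaled CPM. Timp2, which also takes part in pro-Mmp2 activation by Mmp14, stood at 11.8, 15.4, 11.5 and 80.9 scaled CPM. Timp3 stood at 22.6, 19.9, 14.8 and 65.3. The stigmasterol liver lay above the other livers in each, with log2 ratios of 4.85 (4.18 to 5.70), 2.78 (2.65 to 2.92) and 1.53 (1.43 to 1.63) against low sitosterol. Timp4 had 13, 1, 0 and 17 counts and was below 1 CPM in every liver.

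**Figure D2:**
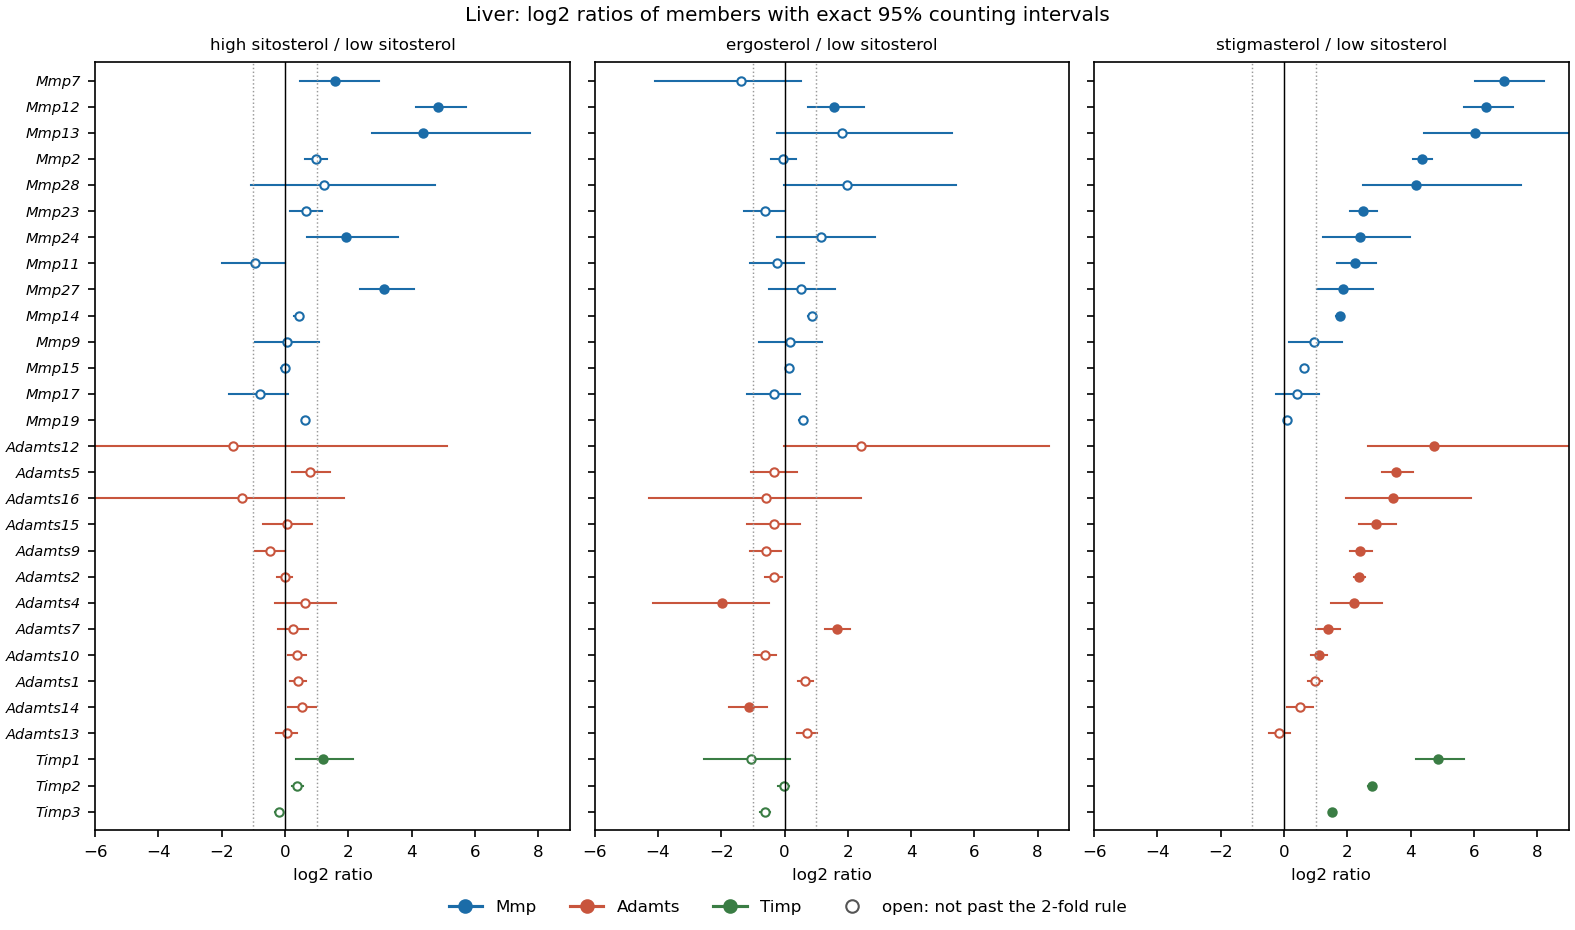
Log2 ratios (x axis) of the 29 genes that passed the limit in liver (rows) for the 3 diets against the low sitosterol liver, with exact 95% counting intervals, some of which run past the axis. Filled points passed the 2-fold rule (dotted lines) with an interval that excluded equality: 6 genes with high sitosterol, 4 with ergosterol and 22 with stigmasterol.

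Matrix genes and markers of matrix-forming cells were high in the same library. Of 22 matrix substrates listed, 18 of the 20 that passed the limit were higher in the stigmasterol liver and 0 lower (median 2.35). Eln (elastin, log2 4.85), Col1a1 (4.15), Thbs2 (3.99) and Fbn1 (3.97) were among them. Stellate cell and fibroblast markers had 12 of 15 higher and 0 lower, and their sum was 259, 309, 258 and 1306 scaled CPM in the 4 livers. The retinol-storing marker Lrat was at -0.08 and Acta2, the smooth muscle actin of myofibroblasts, at -0.06. Col1a1, Col1a2, Col3a1, Dcn and Lum are in both of these lists. Hepatocyte markers had 4 of 9 lower and 1 higher, with sums of 129632, 152675, 124383 and 65523 scaled CPM. Endothelial markers summed to 197, 179, 215 and 205, and adipocyte markers to 16.7, 17.6, 24.4 and 101 scaled CPM, with Lep, Retn and Ucp1 at 0 in all but the low sitosterol liver. In bulk samples, more or fewer cells of a type and more or less RNA per cell cannot be told apart, and the part of cell makeup in the protease ratios was not tested.

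**Figure D3:**
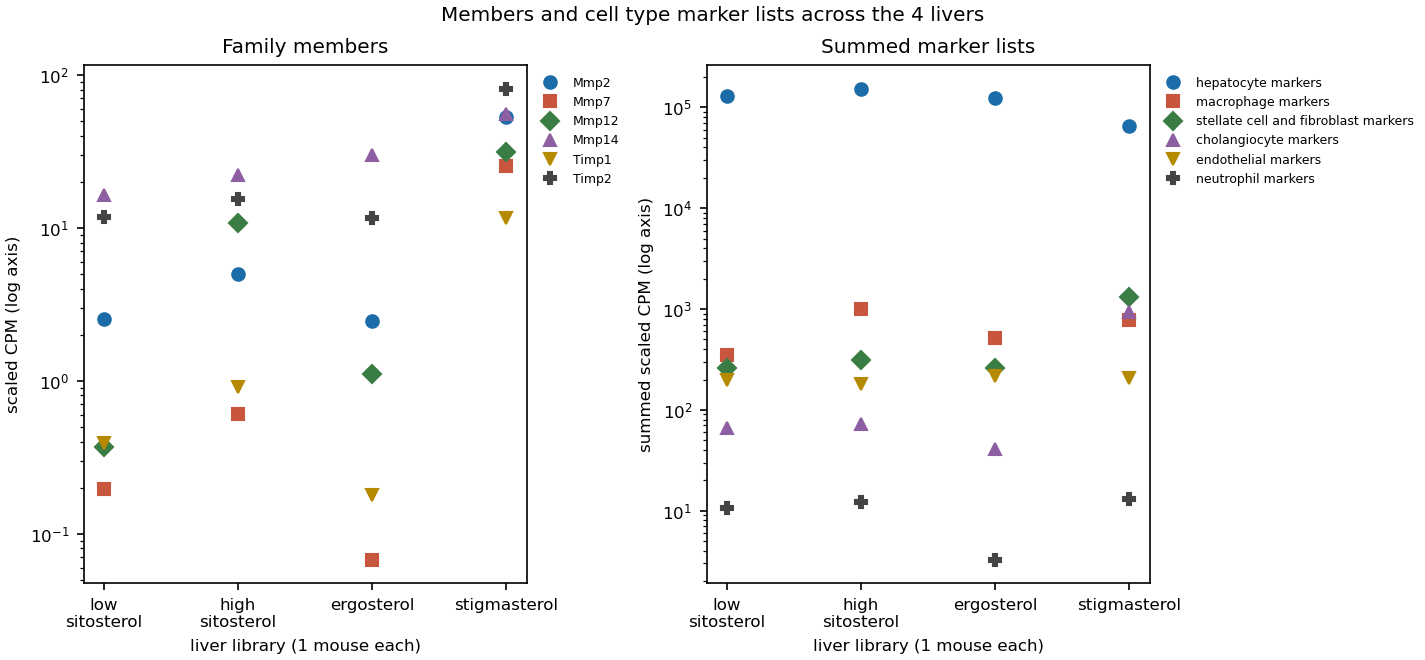
Scaled CPM (log axes) of 6 members (left) and summed scaled CPM of 6 marker lists (right) in the 4 liver libraries, 1 mouse each. Mmp7 and the cholangiocyte sum are highest in the stigmasterol liver (25.3 and 938 scaled CPM), while the hepatocyte sum is lowest there (65523).

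Regulators outside the families were mixed. Of 20 listed activators and inhibitors, 18 passed the limit, 5 were higher and 1 lower with stigmasterol (median 0.06). Plat, the tissue plasminogen activator, was at 3.87 and Cd44, a hyaluronan receptor that docks Mmp9, at 1.95, while Klkb1 (plasma prekallikrein) was at -1.65. Of 14 ADAM and ADAMTS-like genes past the limit, 7 were higher and 0 lower (median 1.11). They included Adamtsl2, a microfibril-binding protein without protease activity, at 92.4 against 11.9 scaled CPM, and Adam15 at 1.61. Of 20 transcription factors and signals past the limit, 7 were higher and 0 lower (median 0.66), with Tgfb1 at 1.95, Smad3 at 1.45, Jun at 1.24 and Ets1 at 1.06.

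Among the members, 10 Mmp genes lie in a row within 427072 bases of chromosome 9 (GRCm38, 7272514 to 7699585): Mmp13, Mmp12, Mmp1b, Mmp3, Mmp1a, Mmp10, Mmp8, Mmp27, Mmp20 and Mmp7. Together they summed to 0.531, 9.29, 1.03 and 80.4 TPM in the 4 livers, and to 14.0 and 9.52 TPM in the adrenals. Neighbours differed: Mmp1a and Mmp1b had 0 counts in all 6 libraries, Mmp10 and Mmp20 had 1 count each, in the stigmasterol liver, and Mmp3 had 1, 3, 4 and 19 counts in the livers. Mmp7 had 0 counts in both adrenals, which allows up to 0.0726 and 0.0621 scaled CPM. Promoter windows (250 bases before to 50 after a start site, RefSeq, GRCm38.p6) were at hand for 32 of the 46 genes, 35 windows in all. Searched on both strands, the AP-1 motif TGANTCA and the TATA motif TATAAA stood together in 8 of 12 windows of the chromosome 9 Mmp genes, against 1.54% of all 32851 windows. The 12 windows come from 10 neighbouring genes of 1 family, so they are not independent of each other. Alone, AP-1 was in 7.81% of all windows and TATA in 13.6%, and the motifs do not overlap each other. The AP-1 match lay 35 to 95 bases before the start in these 8 windows. The TATA match lay just after the start in Mmp12, and 7 and 16 bases before it in Mmp3 and Mmp13. In Mmp1a, Mmp10, Mmp1b and Mmp20 it lay 28, 29, 49 and 58 bases before the start, and in Mmp7 123 and 26. Whether these matches act as TATA boxes was not tested. Mmp1a, Mmp1b, Mmp10 and Mmp20, at 0 or 1 count, held the pair, as did Mmp3, Mmp7, Mmp12 and Mmp13, while Mmp27 held neither motif. The 3 windows below are shown because these genes had the largest stigmasterol ratios, with AP-1 and TATA matches in capitals. All 3 genes lie on the plus strand. For Mmp12 and Mmp7, which have 2 starts each, the window with the matches is given (chr9:7347124-7347423 and chr9:7691840-7692139), and the other held neither motif. The Mmp13 window is chr9:7272264-7272563.
Mmp12: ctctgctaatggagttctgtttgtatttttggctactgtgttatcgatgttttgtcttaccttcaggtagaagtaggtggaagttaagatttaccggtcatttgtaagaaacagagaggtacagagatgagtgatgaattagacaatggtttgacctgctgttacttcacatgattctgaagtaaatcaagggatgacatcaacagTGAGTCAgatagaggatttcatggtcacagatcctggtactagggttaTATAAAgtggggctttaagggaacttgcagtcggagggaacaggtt
Mmp13: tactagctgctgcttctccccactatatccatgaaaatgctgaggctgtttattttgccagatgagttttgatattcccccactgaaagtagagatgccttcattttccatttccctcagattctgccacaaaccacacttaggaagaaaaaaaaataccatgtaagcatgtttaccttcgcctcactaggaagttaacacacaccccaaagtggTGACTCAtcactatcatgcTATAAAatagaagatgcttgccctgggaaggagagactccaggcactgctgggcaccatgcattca
Mmp7: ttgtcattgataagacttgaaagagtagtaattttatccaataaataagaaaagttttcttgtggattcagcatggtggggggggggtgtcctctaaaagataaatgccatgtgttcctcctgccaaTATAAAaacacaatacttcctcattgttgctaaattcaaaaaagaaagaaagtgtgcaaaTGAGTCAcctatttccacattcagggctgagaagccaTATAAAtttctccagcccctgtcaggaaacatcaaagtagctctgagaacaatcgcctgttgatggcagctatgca

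The next comparison is high against low sitosterol in liver. Mmp7, Mmp12, Mmp13 and Mmp27 of the chromosome 9 row, Mmp24 on chromosome 2 and Timp1 stood higher, while no ADAMTS gene passed the rule. Mmp12 was 28.3-fold higher (log2 4.82, 4.13 to 5.71) and Mmp27 8.77-fold higher, at 3.09 against 0.342 scaled CPM (3.13, 2.38 to 4.08). Mmp27 was the member of these whose high sitosterol level exceeded its stigmasterol level (1.26). Mmp13 was at 4.36 (2.74 to 7.73) from 2 counts, Mmp24 at 1.91 (0.69 to 3.56) from 6, Mmp7 at 1.57 (0.46 to 2.97) from 8 and Timp1 at 1.19 (0.35 to 2.14) from 16, and these 4 calls were lost on the log2(TPM + 1) scale (0.56, 0.15, 0.52 and 0.67). Mmp2 lay just short of the rule at 0.96 (0.63 to 1.32), and passed it with library totals (1.16).

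By the size rule 6 of 29 members were higher and 0 lower with high sitosterol, with a median of 0.40, against 8.67% higher and 4.3% lower among all 13378 genes (median -0.05). By family, 5 of 14 Mmp, 0 of 12 Adamts and 1 of 3 Timp genes were higher. All 6 were below 1 CPM in the low sitosterol liver: of the 14 members at 1 CPM or more there, 0 were higher and 0 lower (median 0.38). Of all 11395 genes at that limit, 4.49% were higher and 3.71% lower (median -0.08). The share of higher among all calls was 66.9%, and 78.4% with library totals, which moved the median of all genes by 0.19. On the log2(TPM + 0.1) scale it was 81.5%. Adamts2 was at -0.01 (-0.25 to 0.23) and Adamts5 at 0.80 (0.22 to 1.41). Timp2 was at 0.39 (0.22 to 0.56), and Timp3 at -0.18 (-0.32 to -0.05), which turned to 0.01 with library totals. Of 13 macrophage markers 10 were higher with high sitosterol and 0 lower, and their sum was 352, 990, 515 and 775 scaled CPM in the 4 livers. That sum was highest with high sitosterol, whereas Mmp12 was highest with stigmasterol. Of 9 lipid-associated macrophage markers 6 were higher and 1 lower, although their sum, in which Fabp5 weighs most, was 1330, 1261, 822 and 1328. No marker of either list was at 0 in a liver, and their part in the Mmp12 ratio was not tested.

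Of the matrix substrates 1 of 20, Thbs2 (1.14, named after its value was seen), was higher with high sitosterol and 0 lower (median 0.22). Stellate cell and fibroblast markers had 0 of 15 higher and 1, Acta2, lower (-2.82). Among activators and inhibitors 4 of 18 were higher and 1 lower. Serpine2, which blocks plasminogen activators, was at 3.001 against 36.6 scaled CPM (log2 -3.60) and Cd44 at 1.54. Of the ADAM and ADAMTS-like genes 3 of 14 were higher and 0 lower, and of the transcription factors and signals 4 of 20 were higher and 0 lower, with Jun at 1.75.

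In the ergosterol liver few members differed. Ergosterol, the main sterol of fungi, differs from sitosterol in the alkyl group of its side chain and in further double bonds. Mmp12 was 2.94-fold higher, at 1.10 against 0.366 scaled CPM (log2 1.56, 0.73 to 2.53), and Adamts7, which cuts cartilage oligomeric matrix protein, 3.14-fold higher at 5.32 against 1.69 (1.65, 1.27 to 2.07). Adamts4 (4 against 16 counts, -1.99, -4.16 to -0.49) and Adamts14 (-1.13, -1.77 to -0.54) were lower. Thus 2 of 29 members were higher and 2 lower, against 6.05% and 5.81% of all 13378 genes, so that neither share stood far from the background. All 4 calls were lost on the log2(TPM + 1) scale (Mmp12 0.44, Adamts7 0.79, Adamts4 -0.08 and Adamts14 -0.14). The median was -0.04 over the members and 0.02 over all genes.

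By family, 1 of 14 Mmp genes was higher with ergosterol, 1 of 12 Adamts genes was higher and 2 lower, and 0 of 3 Timp genes passed the rule. Mmp14 was at 0.87 (0.73 to 1.00) and passed the rule with library totals (1.03), Timp2 was at -0.03 (-0.21 to 0.15) and Timp3 at -0.61 (-0.76 to -0.47). Timp1, with 8 against 16 counts, was at -1.07 (-2.55 to 0.19). The share of higher among all calls was 51.01%, 65.1% with library totals and 80.4% on the log2(TPM + 0.1) scale. With library totals 5 members were higher and 1 lower, beside 8.51% and 4.56% of all genes. Matrix substrates had 0 of 20 past the rule in either direction. Fos (log2 2.71), Jun (2.18) and Egr1 (1.77), transcription factors that act on Mmp promoters, were higher, and they were 3 of 20 in their list. Activators and inhibitors had 0 of 18 higher and 1, Plat (-1.45), lower, and ADAM and ADAMTS-like genes 2 of 14 higher and 2 lower, with Adamtsl2 at -1.41. Macrophage markers had 1 of 13 higher and 1 lower, and 4 of 5 neutrophil markers past the limit were lower. Over all 10 listed neutrophil markers, Ly6g, Camp, Ltf and Retnlg were at 0 with ergosterol, and Ly6g was at 0 with low sitosterol too.

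All 3 liver comparisons share the low sitosterol liver, which held adrenal transcripts, so the stigmasterol liver was also set against the other livers, a choice made after seeing the data. Against the high sitosterol liver 20 of 29 members were higher and 1, Mmp27, was lower (log2 -1.29), beside 16.5% and 5.59% of all genes. Against the ergosterol liver 21 were higher and 0 lower, beside 19.4% and 7.09% of all genes. With members kept at 1 CPM or more in the reference liver, 11 of 18 were higher and 1 lower against high sitosterol (9.31% and 6.02% of all genes), and 7 of 13 higher and 0 lower against ergosterol (10.2% and 7.83%). High sitosterol against ergosterol gave 10 members higher and 2 lower of 29, beside 8.96% and 6.18% of all genes. At 1 CPM or more in the ergosterol liver, 2 of 13 were higher and 1 lower, beside 5.19% and 6.45% of 11574 genes. Mmp2 was 10.6-fold higher with stigmasterol than with high sitosterol, at 52.7 against 4.97 scaled CPM.

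In the adrenal glands labelled male, the high sitosterol library was set against the low sitosterol library. Adamts1, Adamts4, Adamts9, Adamts14, Mmp13 and Timp1 were higher, and Mmp12 and Timp4 lower. Adamts4, the aggrecanase, stood at 56.8 against 2.15 scaled CPM, 26.2-fold higher (log2 4.71, 4.41 to 5.04), from 2745 and 89 counts. Adamts9 stood at 77.9 against 24.6 (1.66, 1.56 to 1.77) and Adamts1, a protease of versican and aggrecan, at 144 against 67.4 (1.10, 1.03 to 1.16). Timp1 stood at 33.6 against 12.2 (1.46, 1.31 to 1.60) and Mmp13 at 7.96 against 2.98 (1.42, 1.12 to 1.72).

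Of the 46 genes 30 passed the limit in adrenal, 0 of them through a single library. By the size rule 6 were higher and 2 lower, with a median of -0.04, against 3.83% and 2.31% of all 14224 genes (median 0.00). By family, 1 of 13 Mmp genes was higher and 1 lower, 4 of 13 Adamts genes were higher and 0 lower, and 1 of 4 Timp genes was higher and 1 lower. Adamts14 stood at 9.08 against 4.36 scaled CPM, close to the limit of the rule (1.06, 0.81 to 1.32). Adamts3, a procollagen-trimming relative, was on the other side at -0.97 (-1.30 to -0.65). Adamts5, the other aggrecanase, stood at 19.2 against 24.7 (-0.37, -0.50 to -0.24), apart from Adamts4. Adamts2, Adamts7, Adamts10 and Adamts15 were at -0.05, -0.03, 0.09 and -0.19.

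Mmp12 stood at 4.45 against 11.96 scaled CPM, 2.69-fold lower (log2 -1.43, -1.67 to -1.19). Timp4, the fourth inhibitor, had 230 against 413 counts (-1.07, -1.31 to -0.84), and its call was lost on the log2(TPM + 0.1) scale (-0.98), as was that of Adamts14 (0.97). Several abundant members stayed within 2-fold: Timp3 was at 1506 against 1340 scaled CPM (0.17, 0.15 to 0.18), Timp2 at 216 against 183 (0.24, 0.20 to 0.28), Mmp14 at 70.3 against 62.8 (0.16, 0.09 to 0.24), Mmp19 at 45.0 against 60.4 (-0.42, -0.51 to -0.34) and Mmp2 at 12.9 against 15.0 (-0.22, -0.39 to -0.06). Mmp28, at 15.6 against 21.5 scaled CPM (-0.46, -0.60 to -0.32), was among the 5 Mmp genes of highest TPM in adrenal and was near 0 in the low sitosterol liver, with 2 counts.

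**Figure D4:**
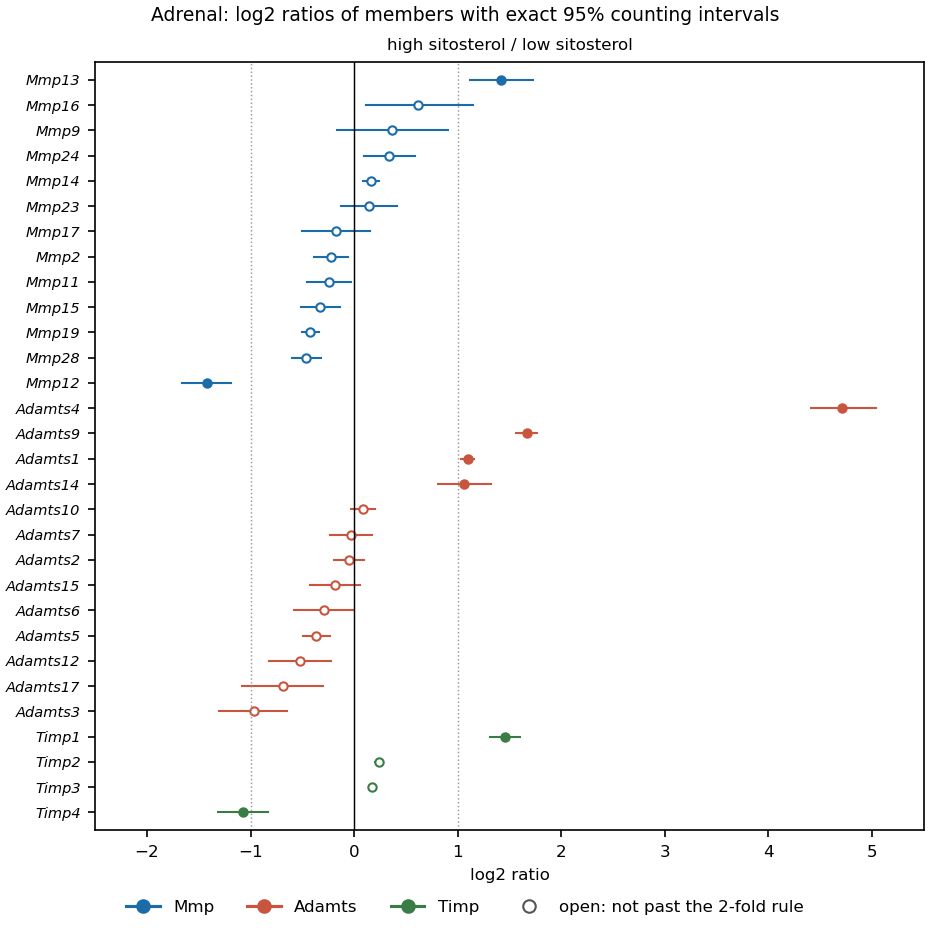
Log2 ratios (x axis) of the 30 genes that passed the limit in adrenal (rows), high against low sitosterol, with exact 95% counting intervals. Filled points passed the 2-fold rule (dotted lines): Adamts4 at 4.71 stands farthest from 0, and Mmp12 and Timp4 are the filled points on the lower side.

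Several marker lists moved between the adrenals. Adipocyte markers had 7 of 8 lower and 0 higher, with sums of 2761 and 1056 scaled CPM with low and high sitosterol. Neutrophil markers had 6 of 6 higher, at sums of 8.60 and 27.4, with Ly6g and Camp at 0 in the low sitosterol adrenal. Macrophage markers had 4 of 12 higher and 0 lower (609 and 998, with Clec4f at 0 in the low sitosterol adrenal). Of the lipid-associated macrophage markers 1 of 9 was higher and 2 lower (2122 and 1455). Gpnmb stood at 6.78 against 16.0 scaled CPM and Lpl, also made by adipocytes, at 276 against 825. Adrenal cortex markers had 0 of 9 past the rule and chromaffin cell markers 0 of 8. The part of these cell types in the Timp4, Mmp12 and Adamts4 ratios was not tested.

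Outside the families, matrix substrates had 1 of 21 higher in the high sitosterol adrenal and 0 lower (median -0.15). That gene was Vcan, the versican that Adamts1, Adamts4 and Adamts9 cut, at 8.09 against 1.82 scaled CPM, named after its value was seen. Activators and inhibitors had 1 of 15 higher and 2 lower, the protease inhibitor A2m at 10.9 against 73.9 scaled CPM (-2.76) and Pcsk6, a convertase that activates pro-proteases (-1.26). ADAM and ADAMTS-like genes had 2 of 14 higher and 2 lower, with Adam8 at 1.22 and Adam12 at -1.15. Of the transcription factors 3 of 21 were higher and 0 lower, with Fosl1, a partner of Jun in AP-1, at 13.8 against 1.67 scaled CPM (3.04) and Stat3 at 1.59.

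The promoter windows of Adamts1 (chr16:85803064-85803363, minus strand) and Adamts9 (chr6:92943485-92943784, minus strand) are shown because both genes stood higher in the high sitosterol adrenal. They are printed 5′ to 3′ on the gene's strand, with TGACG, the core of the cyclic AMP response element, searched on both strands, and the TATA motif in capitals. TGACG was in 4 of 10 Adamts windows (Adamts1, Adamts3, Adamts9 and Adamts12) and in 20.8% of all windows. Adamts3 and Adamts12, at -0.97 and -0.52 in adrenal, held it too. TATA was in 1 of the 10, that of Adamts1, and AP-1 in 0.
Adamts1: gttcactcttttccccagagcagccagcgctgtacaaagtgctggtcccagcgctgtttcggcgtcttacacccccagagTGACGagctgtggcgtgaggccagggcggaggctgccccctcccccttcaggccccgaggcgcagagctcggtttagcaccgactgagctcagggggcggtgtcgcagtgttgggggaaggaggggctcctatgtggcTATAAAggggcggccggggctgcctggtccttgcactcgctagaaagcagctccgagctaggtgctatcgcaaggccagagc
Adamts9: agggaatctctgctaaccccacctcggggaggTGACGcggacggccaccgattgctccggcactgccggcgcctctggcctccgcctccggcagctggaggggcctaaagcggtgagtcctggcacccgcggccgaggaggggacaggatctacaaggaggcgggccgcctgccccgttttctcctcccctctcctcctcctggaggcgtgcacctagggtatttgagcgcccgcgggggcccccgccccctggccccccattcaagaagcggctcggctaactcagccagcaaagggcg

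The same diet contrast gave different values in the 2 tissues. Timp1 and Mmp13 were higher with high sitosterol in liver (1.19 and 4.36) and in adrenal (1.46 and 1.42). Adamts4 was at 0.61 (-0.31 to 1.61) in liver, from 28 and 16 counts, and at 4.71 in adrenal. Adamts9 was at -0.47 in liver and 1.66 in adrenal. Mmp12 was called in opposite directions, at 4.82 in liver and -1.43 in adrenal. The difference between the tissues has no test with 1 library per group.

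In liver 17 of the 46 genes were below 1 CPM in every library, 4 of them with 0 counts in all (Mmp1a, Mmp1b, Mmp21 and Adamts20). In adrenal 16 were below, 5 of them with 0 counts. Adamts6, Adamts17 and Mmp16, which passed the limit in adrenal and not in liver, were at -0.29, -0.68 and 0.62 there. Exons of 13 members overlap those of another gene in GENCODE M21, and the libraries carry no strand information, so that their counts may include reads of the partner. Timp3 shares 1733 exonic bases with Syn3, which had 44 to 184 counts in the livers, against 658 to 4452 for Timp3. Adamts9 shares 1381 bases with A730049H05Rik, at 175 and 568 counts in the adrenals with low and high sitosterol. Mmp11 shares 155 bases with Chchd10, at 19833 to 24392 counts in the livers, and Mmp24 637 bases with BC029722, at 696 to 1561.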

How the data were processed

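RNA was sequenced from 4 livers and 2 adrenals, 1 mouse per group, with groups taken from the sample titles. Per the labels' protocols, the Qiagen RNeasy kit gave the RNA and a TruSeq RNA v2 kit the libraries, which carry no strand information. The authors deposited estimated counts per gene symbol, not normalized, and TPM. Per the submitters' processing notes, kallisto 0.43.1, HISAT2 2.0.5, Trimmomatic 0.33 and mm10 were used, without role or order. The authors' annotation and filters are unknown here.

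Estimated counts were rounded, as 39.1% to 49.3% per library were not whole, and 1 row naming no gene was left out (0 counts). TMM factors came from edgeR 4.0.16 (R 4.3.3) within each tissue, and alternative size factors from DESeq2 1.42.0. Genes entered where 1 library or more of the tissue reached 1 CPM. Ratios used a prior count of 0.5, with exact conditional binomial 95% intervals. Those and the limit for a count of 0 (3 counts) cover counting error only, since PCR copies are not independent molecules. For example, 8 counts have an exact Poisson interval of 3.45 to 15.8. The calculation was tested on simulated data. Coordinates are from GENCODE M21 (GRCm38), which held all 46 symbols. No p-value was computed, since there is 1 library per group.

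Named were all Timp genes, Mmp and Adamts genes called in a comparison with at least 20 counts in the higher library, the 5 of highest mean TPM per tissue (28 genes in all), and up to 4 called genes per list with at least 10 scaled CPM. Other genes are named to close a count or describe a region, after their values were seen. The members and lists were chosen with earlier results of these data known. A few results are not reported here.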

Additional observations from a re-analysis of the deposited data

Results flagged for a closer look

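Mmp12, the macrophage elastase, was called in opposite directions for high against low sitosterol in the 2 tissues, with a log2 ratio of 4.82 in liver and -1.43 in adrenal. The difference between the tissues was not tested, since each rests on 1 library per group. The low sitosterol liver had 15 counts of Mmp12, and the other 3 libraries of this contrast 215 to 494.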

How the results depend on the processing

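No paired analysis was possible because each group has 1 library and the labels give no replicate number, and for the same reason no replicate could be left out. The number of members called moved by over 1.5 times in these cases, with the share of all genes under the same setting in brackets. For high against low sitosterol in liver, 2 were higher on the log2(TPM + 1) scale (4.19%) and 2 were lower with no filter (5.63%). Settings added after seeing the data gave 0 higher at 1 CPM or more in the low sitosterol library (4.49%). They also gave 10 higher and 2 lower against the ergosterol liver (8.96% and 6.18%), or 2 and 1 at 1 CPM or more in it (5.19% and 6.45%). For ergosterol, library totals gave 5 higher and 1 lower (8.51% and 4.56%), no filter 4 lower (6.61%) and a mean of at least 1 CPM 1 lower (4.61%). The log2(TPM + 0.1) scale gave 6 higher and 0 lower (12.1% and 2.95%), and the log2(TPM + 1) scale 1 higher and 0 lower (5.07% and 1.41%). At 1 CPM or more in the low sitosterol library, 1 was higher and 1 lower (3.75% and 4.84%). For stigmasterol, no filter gave 1 lower (8.86%), and the high sitosterol liver as reference 1 lower (5.59%). At 1 CPM or more in that liver, 11 were higher and 1 lower (9.31% and 6.02%). The ergosterol liver at 1 CPM or more in it gave 7 higher (10.2%), and at least 1 CPM in the low sitosterol library 9 higher (12.4%). In adrenal 1 was lower on the log2(TPM + 0.1) scale (2.44%) and 1 on the log2(TPM + 1) scale (1.38%). In these cases the cause was not tested, apart from the filters, which change the genes that enter.

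No called ratio of a named member changed sign under another scaling, filter, prior count or TPM scale. With other reference livers, the stigmasterol ratio turned to -1.29 for Mmp27 (high sitosterol liver) and to -0.27 for Adamts7 (ergosterol liver). Subtracting the adrenal share from the low sitosterol liver left 6, 3 and 23 members higher for high sitosterol, ergosterol and stigmasterol. The shares of all genes were then 8.99%, 6.38% and 22.0%. Low counts limit the ratios of Mmp13, Mmp24, Mmp28, Adamts12 and Adamts16 in liver. On the log2(TPM + 1) scale, which shrinks ratios of low genes, calls were lost for Mmp7, Mmp13, Mmp24 and Timp1 with high sitosterol, for all 4 members called with ergosterol, for Mmp24, Mmp27, Mmp28, Adamts4, Adamts12 and Adamts16 with stigmasterol, and for Adamts14 and Timp4 in adrenal. On the log2(TPM + 0.1) scale, they were lost for Mmp24 with high sitosterol, Adamts4 and Adamts14 with ergosterol, and Adamts14 and Timp4 in adrenal (0.97 and -0.98). With library totals that of Adamts14 with ergosterol was lost (-0.97).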

Other observations

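Some members had more counts in adrenal and were nearly silent in liver. Adamts20 had 18 and 43 counts in the adrenals with low and high sitosterol, below 1 CPM in each, and 0 in every liver. Adamts3 had 211 and 126 counts in the adrenals and 1, 2, 5 and 20 in the 4 livers. Adamts17 had 132 and 96 counts in the adrenals and 3 to 7 in the livers.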
